A study of Mus musculus with 2 samples.

Results

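The serum amyloid A family of the mouse was examined in the liver after injury to the kidneys. Its members Saa1, Saa2, Saa3 and Saa4 were taken as every probe set whose platform annotation gives 1 of these 4 gene symbols, which found 6 probe sets for 4 genes among 45037 probe sets and 18193 named genes. The AKI group (acute kidney injury) consisted of female wild-type C57BL/6 mice, 8 weeks old, whose kidneys underwent 30 min of warm ischemia on both sides followed by reperfusion. The sham group consisted of female wild-type C57BL/6 mice of the same age that had a sham operation. Livers of both groups were taken 24 h later, and the frozen livers of 3 mice per group were pooled before RNA extraction. Each pool was measured on 1 Affymetrix array, so no group has a replicate, the groups cannot be tested against each other and the variation between mice is unknown.

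Serum amyloid A proteins are small apolipoproteins that travel mainly on high-density lipoprotein (HDL). Saa1 and Saa2 encode the acute phase forms, which hepatocytes secrete in large amounts in inflammation, when interleukin-1, interleukin-6 and tumour necrosis factor act through NF-kB, C/EBP and STAT3. Saa3 in mice is made by macrophages, adipocytes and epithelia as well as by the liver, and Saa4 encodes the constitutive form. Persistent high levels of the acute phase forms can lead to deposits of amyloid.

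The values are signal intensities on a linear scale, scaled by the authors to the same mean of 500 on both arrays once the lowest and highest 2% of probe sets are set aside. The highest signal was 106903 on the AKI array and 127787 on the sham array, and the median over probe sets other than controls was 231.8 on the AKI array and 225.7 on the sham array. Differences are given as log2(signal + 71.8), AKI minus sham, with the 25th percentile of the table, 71.8, as pseudocount. This scale understates the differences of weakly expressed genes. Counts and calls of genes past a fold threshold use this scale, so a weak gene can pass 2-fold by its signals and not be called. A gene with several probe sets is represented by the one with the highest mean log2 level. A gene passed the level filter when this probe set reached the median of its array on at least 1 array, which 13128 genes did, all 4 members among them. Repeat measurements exist only where a gene has several probe sets. Over 5149 genes, the SD between these was 0.70, and it was 0.63 in the highest of 4 level classes, to which all 4 members belong. A signal from whole liver cannot tell apart a different number of cells of a type and a different amount of RNA per cell. Both pools had the markers of liver cells, with albumin (Alb) at 98303.4 in the AKI pool and 124516 in the sham pool.

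The acute phase genes were far higher in the AKI pool. Saa2 had a signal of 57271.8 in the AKI pool, against 688 in the sham pool, on its only probe set, 1449326_x_at. The ratio of AKI over sham was 83.2, and the difference of 6.24 was rank 2 from the top of 13128 genes. Saa1 had a signal of 77226 in the AKI pool, against 3222.9 in the sham pool, on 1450788_at. This is a ratio of 24.0 and a difference of 4.55, rank 18 from the top. The other probe set annotated as Saa1, 1419075_s_at, had a signal of 93180.7 in the AKI pool, against 2027.5 in the sham pool. Its ratio was 46.0 and its difference 5.47. All 3 probe sets therefore had the higher signal in the AKI pool, and all 3 were more than 16-fold higher. In comparison, 16-fold or more was reached by 0.206% of the genes that passed the level filter. Whether signals this near the highest of the AKI array were compressed was not tested.

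Which of the 2 acute phase genes each of these probe sets measures is less certain than the symbols show. The annotation pairs 1450788_at with a transcript accession that RefSeq lists under Saa1. It pairs both 1419075_s_at and 1449326_x_at with 1 other accession, which RefSeq lists under Saa2. RefSeq also keeps Saa2 as an older synonym of Saa1, and Saa1 as an older synonym of Saa2. The annotation symbol of 1419075_s_at thus differs from the symbol of its accession. The suffixes _s_at and _x_at mark probe sets that may match several transcripts, so the share of each gene in these 2 signals cannot be told apart. With the probe sets assigned by accession, the difference was 4.55 for Saa1 and 5.47 for Saa2, since 1419075_s_at then represents Saa2, and Saa2 is then rank 5 from the top instead of 2. The pair under the Saa2 accession differed from each other by 0.76 on the log2 scale. The difference of 1450788_at was lower than both, by 0.92 and by 1.69, against an SD of 0.63 between probe sets of a gene in this level class. That SD is of single probe sets around the mean of their gene, and gaps between 2 probe sets spread more widely.

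Saa3 was higher in the AKI pool by a smaller margin. It had a signal of 5297.5 in the AKI pool, against 965.6 in the sham pool, on its only probe set, 1450826_a_at. The ratio was 5.49 and the difference 2.37, rank 161 from the top. The difference of Saa3 was below that of the Saa1 probe set by 2.18, which is more than the spread between probe sets. The suffix _a_at marks probes that match several transcripts of a gene, and Saa3 had no second probe set for a check.

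Saa4, the constitutive member, was lower in the AKI pool. It had a signal of 2716.7 in the AKI pool, against 11550.2 in the sham pool, on 1419318_at. The ratio of sham over AKI was 4.25, and the difference of -2.06 was rank 283 from the bottom. Its other probe set, 1419319_at, had a signal of 777.3 in the AKI pool, against 3318.5 in the sham pool, with a ratio of sham over AKI of 4.27 and a difference of -2.00. The 2 probe sets of Saa4 differed by 0.06, and neither has a suffix that marks several transcripts. In the AKI pool 3 of the 4 members were higher by 2-fold or more, and Saa4 was lower by as much. The shares over all genes past the level filter were 10.4% higher and 12.4% lower at 2-fold, and 2.09% higher and 2.37% lower at 4-fold.

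**Figure D1:**
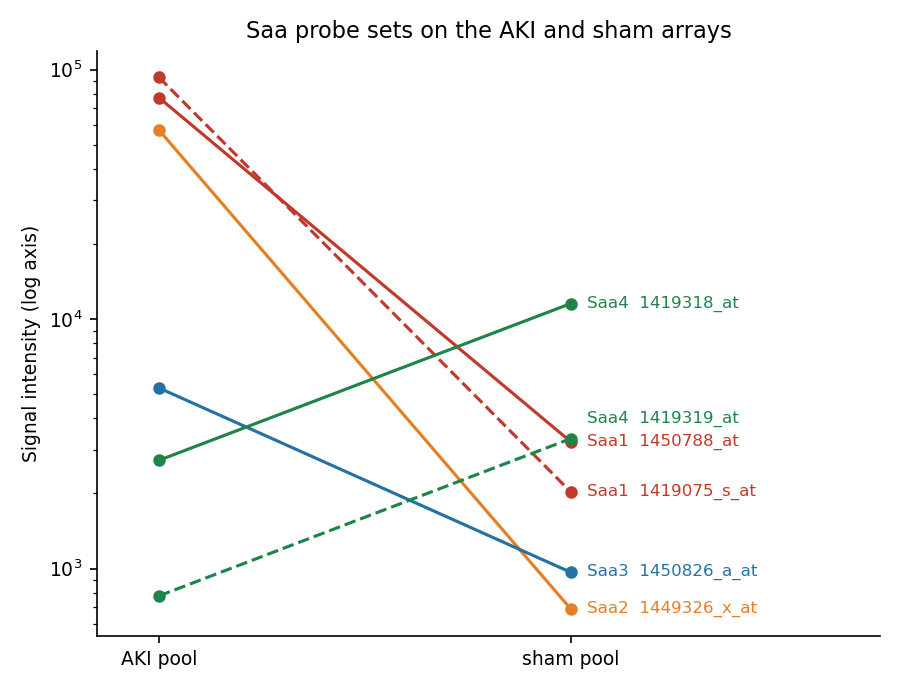
Signal intensity (log axis) of the 6 Saa probe sets in the AKI pool (left) and the sham pool (right), 1 array each, with no error bars because there are no replicates. Solid lines are the probe set that represents each gene and dashed lines the other probe set. The lines of Saa1, Saa2 and Saa3 are higher on the AKI side and both lines of Saa4 are lower there.

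**Figure D2:**
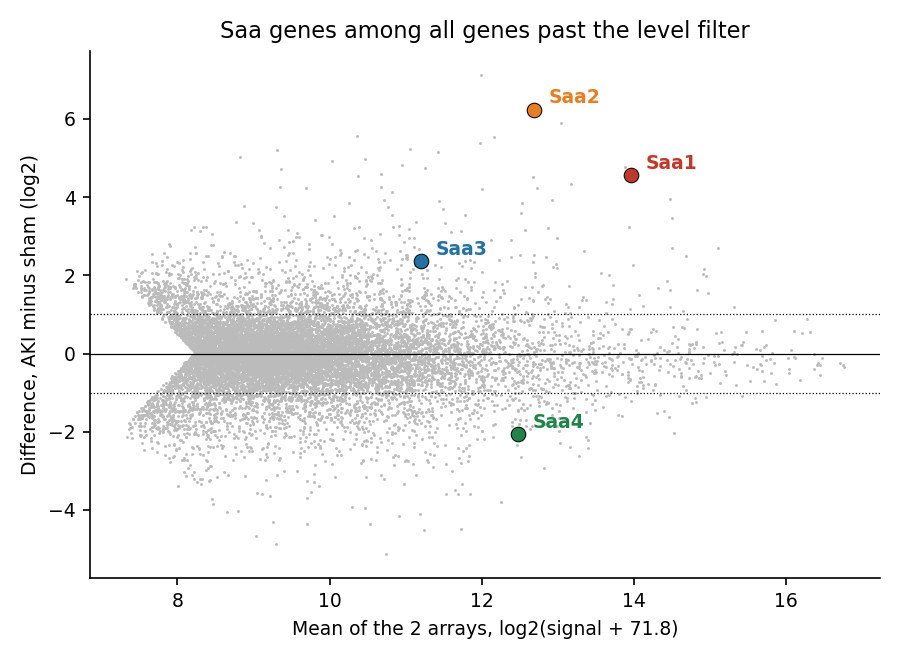
Difference AKI minus sham (log2) against the mean log2 level of the 2 arrays for the 13128 genes past the level filter (grey), with the 4 Saa genes in colour and dotted lines at 2-fold. Saa2 at 6.24 and Saa1 at 4.55 lie at the upper edge, Saa3 at 2.37 below them, and Saa4 at -2.06 below the lower dotted line.

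By distance in the pair of log2 values, which uses only 2 arrays, the 2 genes nearest to Saa1 were Igfbp1 (distance 0.19, difference 4.77) and Mt1 (distance 0.84, difference 3.94). Nearest to Saa2 were Lcn2 (distance 0.56, difference 5.89) and Cd14 (distance 0.90, difference 5.54). Nearest to Saa3 were Ccnl1 (distance 0.09, difference 2.44) and Nedd4l (distance 0.10, difference 2.24). Nearest to Saa4 were Tst (distance 0.03, difference -2.06) and Ccs (distance 0.11, difference -1.90).

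The promoter windows of the 4 genes are printed to set the near-identical pair Saa1 and Saa2 beside Saa3 and Saa4, whose differences were smaller or of the opposite sign. They are RefSeq sequences of build GRCm38.p6 on chromosome 7, from 250 bases before to 50 bases after the listed start of the gene, 5′ to 3′ on the strand of the gene. Capitals mark matches to the C/EBP motif TTNNGNAA on either strand.
Saa1, chr7:46742931-46743230, minus strand: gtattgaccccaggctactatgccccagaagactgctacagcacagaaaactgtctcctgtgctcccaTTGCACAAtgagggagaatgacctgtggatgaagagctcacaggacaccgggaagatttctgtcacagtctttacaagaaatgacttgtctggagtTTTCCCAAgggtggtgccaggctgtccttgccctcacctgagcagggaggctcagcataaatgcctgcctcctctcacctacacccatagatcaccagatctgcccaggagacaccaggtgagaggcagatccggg
Saa2, chr7:46751583-46751882, plus strand: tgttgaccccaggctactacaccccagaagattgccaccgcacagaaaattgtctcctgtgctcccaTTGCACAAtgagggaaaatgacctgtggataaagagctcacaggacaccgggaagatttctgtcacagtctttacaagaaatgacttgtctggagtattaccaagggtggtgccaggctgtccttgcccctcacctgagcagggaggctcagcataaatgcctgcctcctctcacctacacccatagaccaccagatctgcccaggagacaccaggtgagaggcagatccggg
Saa3, chr7:46715627-46715926, minus strand: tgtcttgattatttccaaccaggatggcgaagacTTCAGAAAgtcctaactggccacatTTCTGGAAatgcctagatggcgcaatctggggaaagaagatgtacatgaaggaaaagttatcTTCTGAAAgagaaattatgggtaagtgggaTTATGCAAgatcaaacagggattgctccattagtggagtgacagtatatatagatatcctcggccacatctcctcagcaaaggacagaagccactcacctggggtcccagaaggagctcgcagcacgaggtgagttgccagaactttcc
Saa4, chr7:46732554-46732853, minus strand: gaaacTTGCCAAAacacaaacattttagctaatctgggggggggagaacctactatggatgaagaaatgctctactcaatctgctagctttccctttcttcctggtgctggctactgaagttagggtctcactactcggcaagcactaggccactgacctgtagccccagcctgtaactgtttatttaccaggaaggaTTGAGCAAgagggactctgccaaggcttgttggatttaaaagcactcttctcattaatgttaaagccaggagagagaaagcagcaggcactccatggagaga

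In a global alignment the windows of Saa1 and Saa2 were identical in 95.3% of 301 columns, with 12 mismatches and 2 gap columns. Saa1 lies on the minus strand and Saa2 on the plus strand. The window of Saa3 was identical to that of Saa1 in 50.1% of aligned columns, and that of Saa4 in 44.0%. A C/EBP motif was in all 4 windows. Saa1 and Saa2 shared the match ttgcacaa at -182 and -183 bases from the start. A second match in Saa1 was at -86. Saa3 held 4 matches between -216 and -92, and Saa4 held 2, at -245 and -52. Of all 32851 promoter windows of the same length, 40.7% hold at least 1 match. The NF-kB consensus, the STAT motif TTCNNNGAA and the TATA box TATAAA, each searched on both strands, were in none of the 4 windows, and in 8.46%, 8.30% and 13.6% of all windows. This says only that these letters are not in these 300 bases.

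The Saa genes lie side by side on chromosome 7, in the RefSeq order Saa3, Saa4, Saa1, Saa2, with the pseudogene Saa-ps after Saa4. Saa4, the lower member, thus sits between Saa3 and Saa1, which were higher. The 5 protein-coding genes on each side were also looked up, and 9 of these 10 neighbours passed the level filter, with a median difference of 0.05. Of the 9, Ldha was higher by 2-fold or more, and Ldhc and Tph1 were lower by as much. Both lower genes passed the level filter through the sham array alone. Over all genes past the filter, 10.4% were higher and 12.4% lower by 2-fold or more. Ldha, a subunit of lactate dehydrogenase, had a signal of 37134.5 in the AKI pool, against 17534.5 in the sham pool, a difference of 1.08. The weakly expressed Ldhc, the testis form of that enzyme, had a signal of 72.1 in the AKI pool, against 472 in the sham pool (-1.92). The other probe set of Ldhc was at -0.97, less than 2-fold. Tph1, a tryptophan hydroxylase, had a signal of 91.5 in the AKI pool, against 312.6 in the sham pool (-1.23). The genes directly next to the cluster were Saal1 (-0.43), whose other probe sets reached 1.00, and Hps5, which did not pass the filter. Myod1 (0.60), Kcnc1 (0.78, with probe sets down to -0.49), Sergef (-0.01), Gtf2h1 (0.29) and Tsg101 (0.05) differed by less than 2-fold.

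**Figure D3:**
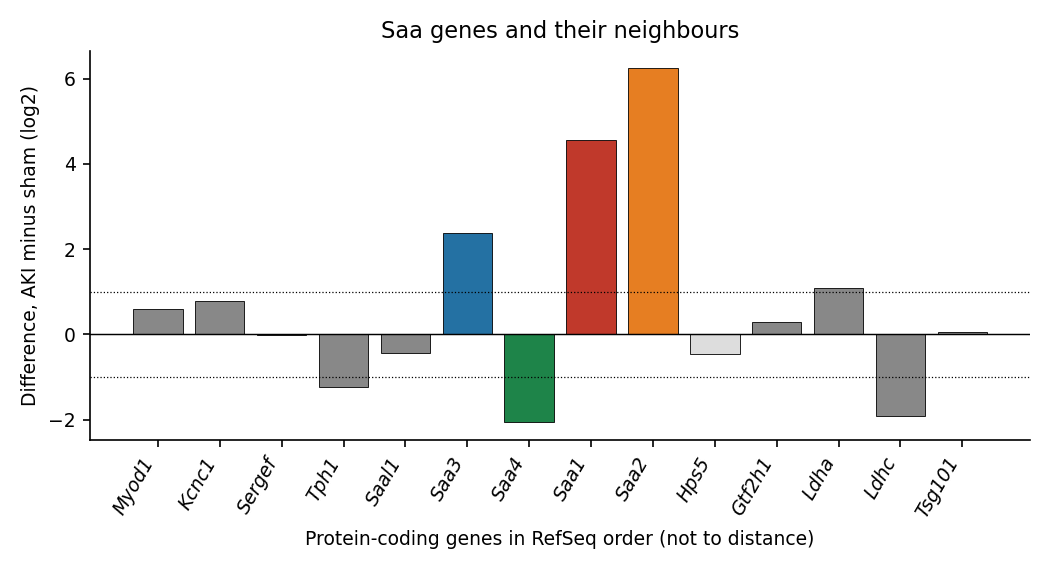
Difference AKI minus sham (log2) of the 4 Saa genes (colour) and the 5 protein-coding neighbours on each side (grey, Hps5 in light grey because it did not pass the level filter), in RefSeq order and not to distance, with dotted lines at 2-fold. The bars of Saa1, Saa2 and Saa3 are higher than those of all 10 neighbours.

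Related genes were taken from 8 lists of the pathway, with 99 distinct genes. Of these, 92 had a probe set and 88 were past the level filter, 10 of them through the AKI array alone and 2 through the sham array alone. Higher by 2-fold or more were 34 (38.6%), lower by 2-fold or more were 5 (5.68%), and the median difference was 0.68, or 0.61 over all 92. Over all genes past the filter the shares were 10.4% and 12.4% and the median -0.02. The lists were chosen with earlier results of these data known, and no test was made.

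Among the cytokines that induce Saa genes, 6 were matched and 5 passed the level filter. Of the 5, 3 passed through the AKI array alone, namely Il6, Il1a and Lif, and Osm through the sham array alone, so a count over these genes carries little weight. The median over all 6 was 0.90, against 1.34 over the 5. Il6, the main inducer of the acute phase response, had a signal of 938.9 in the AKI pool, against 133.3 in the sham pool (2.30). Il1b was at 1526.4 in the AKI pool, against 521.3 in the sham pool (1.43), and Il1a was at 492.6 in the AKI pool, against 151.1 in the sham pool (1.34). Osm, which acts through a receptor of the same family, was lower, at 170.2 in the AKI pool, against 460.3 in the sham pool (-1.14). Lif was at 0.46. Tnf stayed below the median of both arrays, with signals of 58.5 in the AKI pool and 77.9 in the sham pool, so no difference is read from it.

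Of the receptors and their proximal signalling proteins, 5 of 15 were at least 2-fold higher and 1 lower. Their median was 0.71, or 0.63 over all 16 on the arrays. Of the 15, 2 passed the level filter through the AKI array alone, namely Il1r1 and Osmr, which limits what the count can show. Il1r1, the signalling receptor of interleukin-1, had a signal of 7831 in the AKI pool, against 179.5 in the sham pool (4.97). The oncostatin receptor gene Osmr (1.94, with another probe set at 0.99), the adaptor gene Myd88 (1.24), Tnfrsf1b (1.13) and Il6st (1.05) followed. Il6st encodes the shared signalling chain of the interleukin-6 family, and its probe sets went from 0.42 to 1.45. Another probe set of Tnfrsf1b went the other way, at -1.22. Lifr was lower (-1.25, with probe sets from -2.55 to -1.04). Il6ra, the chain that binds interleukin-6, was at -0.72, less than 2-fold.

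Among transcription factors that act on Saa promoters or in hepatocytes, 5 of 12 were at least 2-fold higher and 0 lower, with a median of 0.89. Maz, which passed the level filter through the sham array alone, had signals of 111.6 in the AKI pool and 254.4 in the sham pool. This is a ratio of sham over AKI of 2.28, but a difference of only -0.83 with the pseudocount. Nfkbiz, a nuclear cofactor of NF-kB, was at 3.54, with another probe set at 0.35. Stat3 had a signal of 13774.6 in the AKI pool, against 2333.2 in the sham pool (2.53), although its 4 probe sets went from -0.08 to 2.53. Cebpd was at 3691 in the AKI pool, against 677 in the sham pool (2.33, with another probe set at 0.58). Relb (2.32), which passed the level filter through the AKI array alone, and Sp1 (1.29) were also higher. Cebpb (0.84) and Rela (0.86) were less than 2-fold higher. Cebpa (-0.93) and Hnf4a (-0.83), which maintain the hepatocyte programme, were less than 2-fold lower.

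Feedback inhibitors of these signals had the highest median of the 8 lists, 1.86, with 7 of 9 genes at least 2-fold higher and 0 lower. However, 3 of the 9 passed the level filter through the AKI array alone, namely Tnfaip3, Il1r2 and Zc3h12a, which limits what the count can show. Tnfaip3, an inhibitor of NF-kB signalling, was at 4.93 and Socs3, the inhibitor of STAT3 signalling, at 4.75, and every probe set of both that passed the level filter was at least 2-fold higher. Il1rn, the interleukin-1 receptor antagonist, was at 2.62, with probe sets down to 0.90, and the decoy receptor gene Il1r2 at 2.05. Among 22 genes of other acute phase proteins, 11 were at least 2-fold higher and 1 lower, and the median was 0.99. Lcn2 (5.89), Steap4 (4.23), Mt1 (3.94) and Mt2 (3.47) had the largest differences. Lcn2 was below the 6.24 of Saa2 by annotation symbol and above its 5.47 by accession. Crp, a minor acute phase protein in mice, was the lower one, with 3797.2 in the AKI pool, against 13520.7 in the sham pool (-1.81). The plasma proteins Hpx (-0.01), Cp (-0.06) and Itih3 (-0.12) differed little, although the probe sets of Cp ranged up to 3.75.

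The last 3 lists hold genes of proteins that carry, bind or break down serum amyloid A. Of 12 genes of HDL proteins and HDL remodelling, 1 was at least 2-fold higher and 1 lower, with a median of -0.27, which was 0.03 when the arrays were centred on hybridization controls. Apoa1, the main HDL apolipoprotein, had a signal of 73872.8 in the AKI pool, against 107428 in the sham pool (-0.54), and Apoa2 had 78317.5 in the AKI pool, against 96252.5 in the sham pool (-0.30). Abca1, the transporter that loads lipid onto Apoa1, was higher, with 24641.4 in the AKI pool, against 5878 in the sham pool (2.05). Lcat, the enzyme that esterifies HDL cholesterol, was lower, with 4424.2 in the AKI pool, against 13228.3 in the sham pool (-1.56). Apoa4 was at 0.89. Of 8 receptor genes on the arrays, 7 passed the level filter, while Ager, with 134.7 in the AKI pool and 33.1 in the sham pool, did not. The median of the 7 was 0.01, and it ranged from -0.28 to 0.33 across the alternatives tried, with both signs. Only Fpr2, the formyl peptide receptor that binds serum amyloid A, was at least 2-fold higher (1.09), with Tlr2 at 0.76, Scarb1 at -0.32 and Tlr4 at 0.11. Among genes of proteolysis and amyloid components, 8 passed the level filter, and 3 of them were at least 2-fold higher and 1 lower. Their median was 0.46, and 0.28 with Mmp3, which did not pass. Ctsl, a lysosomal cathepsin, was at 62531.1 in the AKI pool, against 15898.5 in the sham pool (1.97). Apcs, which encodes serum amyloid P, a component of amyloid deposits, was at 1.39 and Mmp9 at 1.13. Of these, Mmp9 passed the level filter through the AKI array alone. Hspg2, which encodes the matrix proteoglycan perlecan, was at -1.69, with its other probe set at 0.07.

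**Figure D4:**
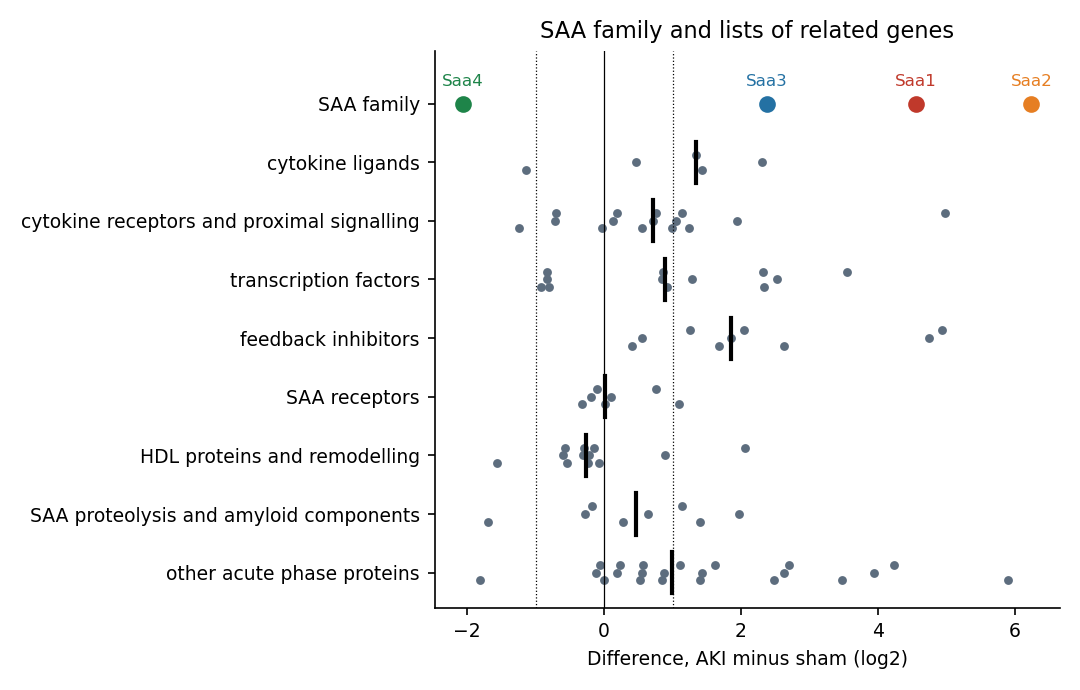
Difference AKI minus sham (log2) of the 4 Saa genes (top row, coloured) and of the genes of 8 related lists past the level filter (1 point per gene, moved up or down only for legibility), with a black bar at each list median and dotted lines at 2-fold. The median is highest for feedback inhibitors, at 1.86, and near 0 for the receptors of serum amyloid A.

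Markers of other cell types were set beside Saa3, which macrophages and adipocytes can also make. The macrophage and Kupffer cell markers had a summed signal of 9659.9 in the AKI pool and 13344.5 in the sham pool, and all 10 passed the level filter. Of these, Marco was at least 2-fold higher (1.46) and Clec4f (-1.37) and C1qa (-1.01) at least 2-fold lower. Marco passed the filter through the AKI array alone, with a signal of 187.4 in the sham pool. The neutrophil markers had a summed signal of 8765.2 in the AKI pool and 3860.7 in the sham pool, with 10 genes on the arrays. Of these, 8 passed the level filter, 3 of them through the AKI array alone, namely S100a8, S100a9 and Elane. At least 2-fold higher were S100a8 (3.17), S100a9 (2.72) and Ngp (1.12). Their signals in the AKI pool were 2023.4, 1666.6 and 2012.4, against 161.4, 191.2 and 889.1 in the sham pool. Most of the gap between the sums came from these genes. Elane (0.76), Mmp8 (0.31), Ltf (0.19) and Csf3r (0.14) were less than 2-fold higher. Mpo was at -0.03, and Cxcr2 and Camp stayed below the median of both arrays. The adipocyte markers had a summed signal of 3640.2 in the AKI pool and 1791.8 in the sham pool. Most of the sum in the AKI pool came from Fabp4 (2.46, with probe sets down to 0.37). Without Fabp4 the sums of the other 4 genes were 1362.3 in the AKI pool and 1437.8 in the sham pool, and Retn, the other adipocyte marker that passed the level filter, was at -0.39. The defining adipocyte genes Adipoq, with 167.5 in the AKI pool and 85.3 in the sham pool, and Lep, with 161.2 in the AKI pool and 35.8 in the sham pool, stayed below the median of both arrays. The part of these cells in the Saa3 difference was not tested. With the pseudocount, none of the 10 hepatocyte markers differed by 2-fold, and their median was -0.54. Their summed signal was 387234 in the AKI pool and 461142 in the sham pool. Ass1, which passed the level filter through the sham array alone, had signals of 185.4 in the AKI pool and 371.4 in the sham pool. By these signals Ass1 was just past 2-fold lower, but its difference was only -0.79 with the pseudocount.

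In the other marker lists, 1 of 7 endothelial genes was at least 2-fold higher, Lyve1 (1.79), and 1 lower, Stab1 (-1.55). Of 7 stellate cell and fibroblast genes 1 was lower, Lrat (-1.74), which passed the level filter through the sham array alone. Of 4 cholangiocyte genes on the arrays, Sox9 (2.58) was at least 2-fold higher and Epcam was at 0.40, while Krt7 and Krt19 stayed below the median of both arrays. Of 5 genes of intestinal epithelium on the arrays, Cdx2 (1.20) was at least 2-fold higher, and Vil1 and Muc2 stayed below the median of both arrays. Cdx2 passed the level filter through the AKI array alone. At least 2-fold higher among 10 reference genes was Ywhaz (1.20, with probe sets from -0.40 to 1.20), and the median of these genes was 0.29.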

How the data were processed

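Liver RNA of 2 pools, 1 AKI and 1 sham, was measured on 1 array each, so there are no replicates. Per the labels' protocols, biotinylated cRNA was made from 8 ug of total RNA. The authors deposited 1 signal intensity per probe set, already scaled to a common trimmed mean, and the software and its settings are not given in the sources used here. A common target removes any difference in total mRNA between the pools.

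From these values, log2(signal + 71.8) and AKI minus sham differences were computed with numpy 2.4.6, pandas 2.3.3 and statsmodels 0.14.6 under Python 3.11.15, and promoters were aligned with Biopython 1.88. Of 45101 probe sets, 64 are controls. Of the others, 34945 had 1 gene symbol in the platform annotation, 932 several and 9160 none, and only those with 1 symbol were used. Probe set accessions were compared with RefSeq genes of assembly GRCm38.p6. The deposited table gives no genome build. The fold call was run on simulated arrays with planted changes well past 2-fold. Their noise was below the spread between probe sets, so this says nothing on the accuracy of the counts here.

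The members, the gene lists and the rule for naming genes were chosen with earlier results of these data known. The rule named every member and, of each list, the 4 genes with the largest absolute difference or all past 2-fold where 5 or fewer. It also named the 5 neighbours on each side and the 2 nearest genes per member. Further genes were named for their role, or to show a limit of a count, after their values were seen. The alternatives tried were other pseudocounts, scalings, level filters and choices of probe set. Assignment by accession, and the alternatives for the gene lists, were chosen after seeing the data. Of 10 reference genes measured, the median was used for centring, as was that of 18 hybridization control probe sets.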

Additional observations from a re-analysis of the deposited data

How the results depend on the processing

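Saa1, Saa2, Saa3 and Saa4 kept their direction and stayed past 2-fold under each alternative that gave a value, with differences from 4.26 to 5.01 for Saa1, 5.47 to 6.54 for Saa2, 2.08 to 2.67 for Saa3 and -2.35 to -1.76 for Saa4. The lowest value of Saa2, 5.47, came from assigning probe sets by accession, which makes 1419075_s_at its representative. Without probe sets of the suffixes _s_at, _x_at and _a_at, 1 member was at least 2-fold higher, Saa1, since Saa2 and Saa3 then have no probe set. Of all genes, 1370 were at least 2-fold higher and 1634 lower. These counts were 841 and 1063 with a pseudocount equal to the table median (228.7), 2211 and 1066 with centring on hybridization controls, and 883 and 2531 with centring on reference genes. Higher genes made up 67.5% and 25.9% of the calls under these 2 centrings, against 45.6% as deposited, and the median of all genes was 0.28 and -0.31. In the lists of related genes, 5 genes were at least 2-fold lower as deposited, 10 when centred on reference genes and 3 when centred on hybridization controls. The higher genes numbered 26 to 44 over the alternatives, against 34. The median of the HDL list ranged from -0.56 to 0.03 and that of the receptor list from -0.28 to 0.33. That of the proteolysis list ranged from 0.17 to 0.76, and the medians of the other 5 lists stayed above 0 as well. No paired analysis was possible because each group has 1 array. With 2 arrays, no replicate could be left out, and the variation between mice limits every value.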
